A study of Mus musculus with 4 samples.

Results

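The miR-181 family is a group of vertebrate microRNAs (miRNAs), short RNAs that guide the silencing machinery to messenger RNAs. A miRNA is cut from a hairpin precursor as a 5p strand, a 3p strand, or both, and recognises its targets mainly through its seed, bases 2 to 8 from the 5′ end. In mouse blood formation miR-181a is known for favouring the B lineage when it is expressed in progenitors and for setting the sensitivity of the T cell receptor in thymocytes, and miR-181b for restraining the antibody-diversifying enzyme AID in B cells. The family has 6 members here, taken by name: miR-181a-5p, miR-181b-5p, miR-181c-5p, miR-181d-5p, miR-181a-1-3p and miR-181c-3p, out of 1078 mature names in the series table.

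The family was followed through small RNA libraries of 4 cell populations from C57BL/6J mice, labelled as 5 to 6 weeks old, with 1 library per population. Haematopoietic stem cells (HSC) were bone marrow cells sorted as c-Kit+ Sca1+ Lineage-. Immature dendritic cells (imDC) were bone marrow progenitors grown for 6 days with IL-4 (1 ng/mL) and GM-CSF (10 ng/mL). Mature dendritic cells (maDC) had the same cytokines, with 10 ng/mL LPS added from day 4, and were selected at day 8 on CD11c beads. Regulatory dendritic cells (DCreg) were maDC held for at least 7 days on a monolayer of endothelial-like splenic stromal cells and selected again on CD11c beads. Thus imDC and maDC differed in LPS, in days of culture and in CD11c selection, and any stromal or other cells left in a preparation would contribute RNA to it. The comparisons follow the order of the stages: imDC with HSC, maDC with imDC, and DCreg with maDC. With 1 library each, no difference could be tested against a spread between replicates, and in bulk RNA fewer cells of a type and less RNA per cell cannot be told apart.

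The deposited miRNA scores summed to 4226458 in HSC, 5251069 in imDC and 4475569 in maDC, and 2725948 in DCreg, and levels are given as parts per 1000000 (ppm) of these totals. The lists of unique sequences with copy numbers held 4904897 to 6572858 reads per library, of which 80.2% to 84.0% were recounted onto mature miRNAs, and recounted levels are ppm of those reads. The lists may hold part of each library: they gave no read to miR-191-5p, whose score was 61246 ppm in HSC, and recounted levels and totals leave out whatever such names contributed. Intervals are exact 95% intervals and cover counting error only, since reads amplified by PCR without molecular identifiers are not independent molecules. Markers of other cells differed between the libraries: the 3 erythroid markers (miR-144-3p, miR-451 and miR-486-5p) summed to 13763 ppm in HSC and to 1.56 to 19.0 ppm in the 3 dendritic cell libraries. The 2 muscle markers (miR-1a-3p and miR-206-3p) summed to 8632 ppm in HSC and 40.2 in imDC, and 45.6 in maDC and 259 in DCreg. The 3 stromal markers summed to 1038, 59.8, 163 and 245 ppm and the 2 endothelial markers to 121, 8.00, 2.46 and 1.47 ppm in the same order, and no marker had a score of 0 in any library. The 3 markers of blood cells in general summed to 23530, 12638, 14196 and 10141 ppm. The 4 HSC and progenitor markers summed to 2678, 608, 1045 and 2763 ppm. Within that list miR-196b-5p was higher in HSC, with 12.5 ppm in DCreg and 251 ppm in HSC, while miR-99a-5p and miR-125b-5p were higher in DCreg, with 345 and 363 ppm in DCreg and 175 and 58.0 ppm in HSC. The 4 markers of activated dendritic cells summed to 6272 ppm in HSC, 93034 in imDC, then 70199 in maDC and 36837 in DCreg. Most of each sum was miR-146b-5p, with 6182, 89225, 67585 and 36546 ppm. The other markers of that list differed more between maDC and DCreg. miR-155-5p had 1651 and 141 ppm there, miR-132-3p 374 and 67.9 ppm, and miR-147-3p 589 and 82.2 ppm. All 4 markers of that list had a higher score in imDC, which had no LPS, than in maDC, by under 2-fold. In imDC miR-155-5p had 2609 ppm, miR-132-3p 455 ppm and miR-147-3p 745 ppm. The part of these other cells in the miR-181 values was not tested.

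The mature sequences show what the members share and where they differ. They are written 5′ to 3′ as DNA letters, as in the series table, with the seed in capitals.
miR-181a-5p: aACATTCAacgctgtcggtgagt
miR-181b-5p: aACATTCAttgctgtcggtgggt
miR-181c-5p: aACATTCAacctgtcggtgagt
miR-181d-5p: aACATTCAttgttgtcggtgggt
miR-181a-1-3p: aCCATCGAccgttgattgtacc
miR-181c-3p: aCCATCGAccgttgagtggacc
The 4 5p members carry the seed ACATTCA, and no other mature name in the table does. The 2 3p members share a second seed, CCATCGA, which is also on no other name. Counted from 1 at the 5′ end, miR-181b-5p differs from miR-181a-5p by A9T, C10T and A21G, and miR-181d-5p differs from miR-181b-5p by C12T alone. The miR-181c-5p sequence is that of miR-181a-5p without the G at position 11, which makes it 22 nt long against 23 nt for the other 5p members.

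The members come from 6 hairpins in 3 pairs on the mouse genome (GRCm38, GENCODE M21). Mir181a-1 (chr1:137966455-137966541, plus strand) and Mir181b-1 (chr1:137966639-137966718, plus strand) lie 97 bases apart, in an intron of Gm4258 and overlapping an exon of the long noncoding RNA A430106G13Rik, both on the same strand. Mir181a-2 (chr2:38852735-38852810, plus strand) and Mir181b-2 (chr2:38853830-38853918, plus strand) lie 1019 bases apart, opposite to an intron of Nr6a1, which encodes an orphan nuclear receptor. Mir181c (chr8:84178873-84178961, minus strand) and Mir181d (chr8:84178716-84178787, minus strand) lie 85 bases apart in an intron of Nanos3, an RNA-binding protein of germ cells, on the same strand. The precursors of miR-181a-5p are printed because the 2 of them encode the same 5p strand in different hairpins. They are RefSeq sequences of GRCm38.p6 in RNA letters, with the 5p and 3p strands in capitals.
Mir181a-1: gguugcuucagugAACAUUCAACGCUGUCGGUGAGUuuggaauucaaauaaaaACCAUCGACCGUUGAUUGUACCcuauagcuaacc
Mir181a-2: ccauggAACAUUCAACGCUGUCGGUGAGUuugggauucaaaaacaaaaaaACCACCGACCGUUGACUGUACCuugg
Both precursors continue with the letters uugg after the 23 bases of the mature strand, so a read ending within this stretch does not tell which gene it came from.

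The summed level of the 4 5p members was lower at each later stage. It was 13999 ppm in HSC, 7367 ppm in imDC, 4445 ppm in maDC and 2081 ppm in DCreg by the deposited scores. By recounted reads it was 11018 ppm (interval 10928 to 11108) in HSC, 8636 ppm (8557 to 8715) in imDC, 3830 ppm (3779 to 3882) in maDC and 1975 ppm (1931 to 2019) in DCreg. The HSC library was thus the highest and the DCreg library the lowest by both measures, but the steps between them had different sizes. The sum was 1.90-fold lower in imDC than in HSC by the scores and 1.28-fold lower (1.26 to 1.29) by recounted reads. It was 1.66-fold lower in maDC than in imDC by the scores and 2.25-fold lower (2.22 to 2.29) by reads. It was 2.14-fold lower in DCreg than in maDC by the scores and 1.94-fold lower (1.89 to 1.99) by reads, but 1.12-fold lower where only reads within the annotated strand were recounted. The difference between maDC and imDC also depended on the scaling, as it came to a log2 ratio of -0.18 with trimmed mean of M-values scaling and -0.025 with median of ratios scaling, against -0.73 by the column total. The summed scores weigh the members unequally, with a score of 1.58 per recounted read for miR-181d-5p and 0.891 for miR-181a-5p in HSC. The part of this in the sizes of the steps by score was not tested.

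Each of the 6 members had a lower score in each later library than in the one before it. Of 192 miRNAs outside the family that reached 100 ppm in a library, 43 (22.4%) did the same. In recounted reads 3 of the 4 5p members did so, miR-181b-5p being the exception. The last step of miR-181a-1-3p was small, from 31.5 ppm in maDC to 30.4 ppm in DCreg. miR-181c-5p, miR-181a-1-3p and miR-181c-3p reached 100 ppm in HSC alone, so a lower later score is the more readily seen. By score miR-181b-5p was not lower in maDC than in imDC with 2 other scalings (log2 ratios 0.03 and 0.18). Outside the members, miR-181b-1-3p had 39.3 ppm in HSC and 49.7 ppm in imDC.

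**Figure D1:**
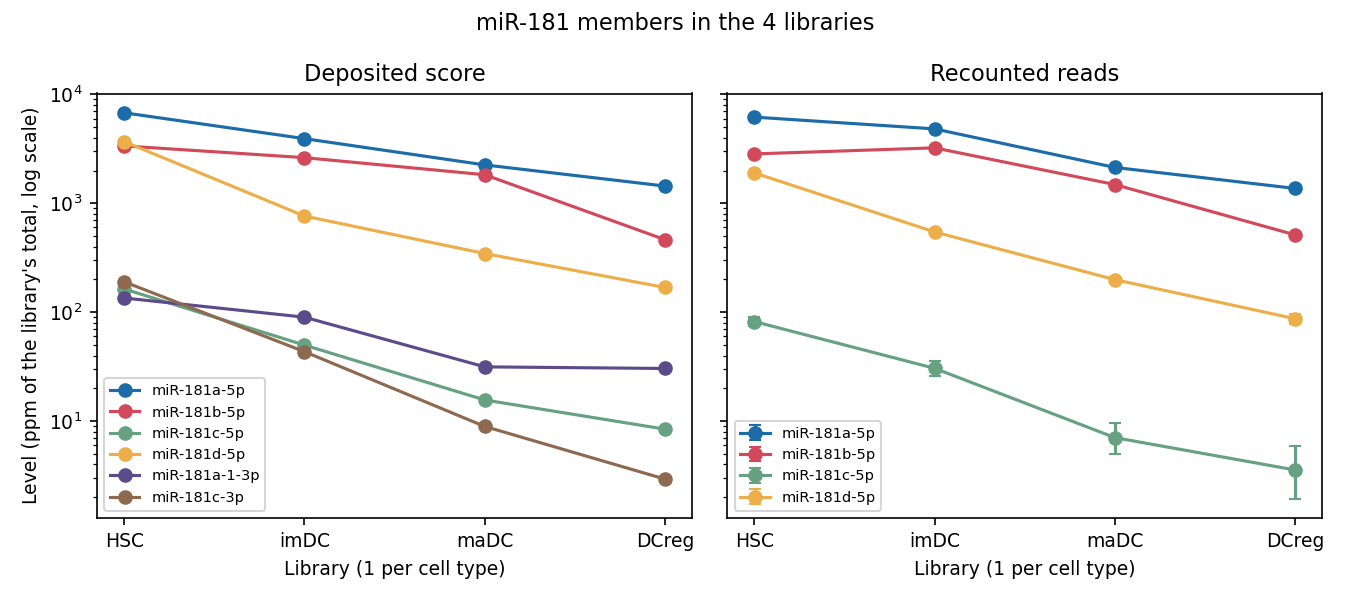
Levels of the miR-181 members in the 4 libraries, in ppm on a log axis, by deposited score (left, 6 members) and by recounted reads (right, the 4 5p members, with exact 95% counting intervals). Every line ends lowest in DCreg, and miR-181b-5p is higher in imDC than in HSC in the right panel only.

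miR-181a-5p was the most abundant member in every library by both measures. It had 6783 ppm in HSC, 3926 ppm in imDC, 2253 ppm in maDC and 1441 ppm in DCreg by score, and 6191, 4826, 2136 and 1371 ppm by recounted reads. No step by score reached the 2-fold size used as a call here. It was 1.73-fold lower in imDC than in HSC (recount 1.28-fold, 1.26 to 1.30), 1.74-fold lower in maDC than in imDC (recount 2.26-fold, 2.21 to 2.31) and 1.56-fold lower in DCreg than in maDC (recount 1.56-fold, 1.51 to 1.61). Among all mature names it ranked 27th by score in HSC, 38th in imDC, 33rd in maDC and 46th in DCreg.

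miR-181b-5p had its largest step at the last stage. It had 3368 ppm in HSC, 2627 ppm in imDC, 1831 ppm in maDC and 464 ppm in DCreg by score, and 2843 (2797 to 2889), 3232 (3184 to 3281), 1488 and 513 ppm by recounted reads. The DCreg library stood well below the other 3. The level in DCreg was 3.95-fold lower than in maDC by score and 2.90-fold lower (2.76 to 3.05) by reads. Between imDC and HSC the measures had opposite directions, as miR-181b-5p was 1.28-fold lower in imDC by score and 1.14-fold higher (1.11 to 1.16) by reads. Between maDC and imDC it was 1.44-fold lower by score and 2.17-fold lower (2.12 to 2.23) by reads, while trimmed mean of M-values and median of ratios scaling of the scores put it at log2 ratios of 0.03 and 0.18.

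miR-181d-5p, which differs from miR-181b-5p at a single base, had its largest difference between imDC and HSC. It had 3685 ppm in HSC, 764 ppm in imDC, 346 ppm in maDC and 169 ppm in DCreg by score, and 1902, 547, 199 and 87.2 ppm by recounted reads. HSC held by far the most, and the 3 dendritic cell libraries followed in the order of the stages. It was 4.82-fold lower in imDC than in HSC (recount 3.48-fold, 3.34 to 3.63), 2.21-fold lower in maDC than in imDC (recount 2.74-fold, 2.56 to 2.94) and 2.05-fold lower in DCreg than in maDC (recount 2.29-fold, 2.02 to 2.59).

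miR-181c-5p, made from the hairpin next to that of miR-181d-5p, was the rarest 5p member. Its scores were 691 in HSC, 262 in imDC and 70 in maDC, and 23 in DCreg, and the lists held 427, 161, 39 and 14 of its reads. That is 163, 49.9, 15.6 and 8.44 ppm by score. It was 3.28-fold lower in imDC than in HSC (recount 2.69-fold, 2.24 to 3.24) and 3.19-fold lower in maDC than in imDC (recount 4.33-fold, 3.03 to 6.31). The last step rested on few reads, with a recounted level 1.98-fold lower in DCreg than in maDC and an interval of 1.05 to 3.95.

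The 3p members were known here from the deposited scores alone. miR-181a-1-3p had scores of 571 in HSC and 473 in imDC, and 141 in maDC and 83 in DCreg, or 135, 90.1, 31.5 and 30.4 ppm. It was 1.50-fold lower in imDC than in HSC and 2.86-fold lower in maDC than in imDC, and DCreg and maDC lay within 1.03-fold of each other. miR-181c-3p had scores of 804, 228, 40 and 8 in the same libraries, or 190, 43.4, 8.94 and 2.93 ppm, and was 4.38-fold lower in imDC than in HSC. No read in any list began at the annotated first base of either. Reads that began at base 7 numbered 101 in HSC, 126 in imDC, then 27 in maDC and 11 in DCreg for miR-181a-1-3p, and 8, 6, 7 and 2 for miR-181c-3p. How these names were scored was not given in the sources used here, so their levels have no check from reads.

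Counted by size, 3 of the 6 members were at least 2-fold lower in imDC than in HSC (miR-181c-5p, miR-181d-5p and miR-181c-3p) and none was at least 2-fold higher. The 3 called come from the neighbouring Mir181c and Mir181d hairpins, and miR-181c-5p and miR-181c-3p from the same hairpin, so they are not independent. No member from the other hairpins was called. Of these, miR-181c-5p and miR-181c-3p reached 100 ppm in HSC alone, at 163 and 190 ppm, against 49.9 and 43.4 ppm in imDC. A member that reaches the minimum only in HSC is the more readily called lower. Of the 187 miRNAs that reached 100 ppm in either library, 28.3% were lower by that much and 26.2% higher. The median log2 ratio was -1.25 over the 6 members and -0.12 over the 187 miRNAs. The members' median includes miR-181c-5p, miR-181c-3p and miR-181a-1-3p (135 ppm in HSC, 90.1 ppm in imDC), which passed the minimum in HSC alone. The 3 members at 100 ppm in both libraries had -0.79 (miR-181a-5p), -0.36 (miR-181b-5p) and -2.27 (miR-181d-5p). Between maDC and imDC, 3 members reached 100 ppm and 1 of them (miR-181d-5p) was at least 2-fold lower, where 45.0% of 160 miRNAs were lower and 9.38% higher. The median log2 ratio was -1.33 over all 6 members, those under 100 ppm included, and -0.88 over the 160. The 3 members that reached 100 ppm had -0.80 (miR-181a-5p), -0.52 (miR-181b-5p) and -1.14 (miR-181d-5p), on both sides of that -0.88. Between DCreg and maDC, 2 of 3 (miR-181b-5p and miR-181d-5p) were at least 2-fold lower, where 28.3% of 138 miRNAs were lower and 20.3% higher. The medians were -0.95 over all 6 members, again with those under 100 ppm, and -0.34 over the 138. The 3 members that reached 100 ppm had -0.645 (miR-181a-5p), -1.98 (miR-181b-5p) and -1.03 (miR-181d-5p). None of the members was at least 2-fold higher at any step.

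The members' shares of the 5p pool differed between the libraries. Shares are given by recounted reads, because the deposited score per read differed between members. Scores thus cannot be set directly against each other across members, and the summed scores carry the same unequal weights. miRNAs with 1 hairpin and at least 500 reads had a median score of 1.23 to 1.41 per recounted read, and those with 2 hairpins a median of 0.477 to 0.575. miR-181a-5p and miR-181b-5p, with 2 hairpins, had 0.626 to 0.997, and miR-181c-5p and miR-181d-5p, with 1, had 1.34 to 1.79. Thus miR-181d-5p stood above miR-181b-5p in HSC by score, with 3685 against 3368 ppm, but below it by reads, with 1902 against 2843 ppm.

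miR-181a-5p made up 56.2% of the pool in HSC, 55.9% in imDC and 55.8% in maDC, and 69.4% (68.4% to 70.4%) in DCreg. The intervals of the first 3 libraries overlapped and DCreg stood apart. miR-181b-5p made up 25.8%, 37.4%, 38.8% and 26.0%, high in imDC and maDC and lower in HSC and DCreg. miR-181d-5p made up 17.3%, 6.33%, 5.20% and 4.42%, and miR-181c-5p 0.746%, 0.354%, 0.184% and 0.180%. The HSC pool thus held more of the strands from the chromosome 8 pair, and the DCreg pool more miR-181a-5p, than the pools of imDC and maDC.

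**Figure D2:**
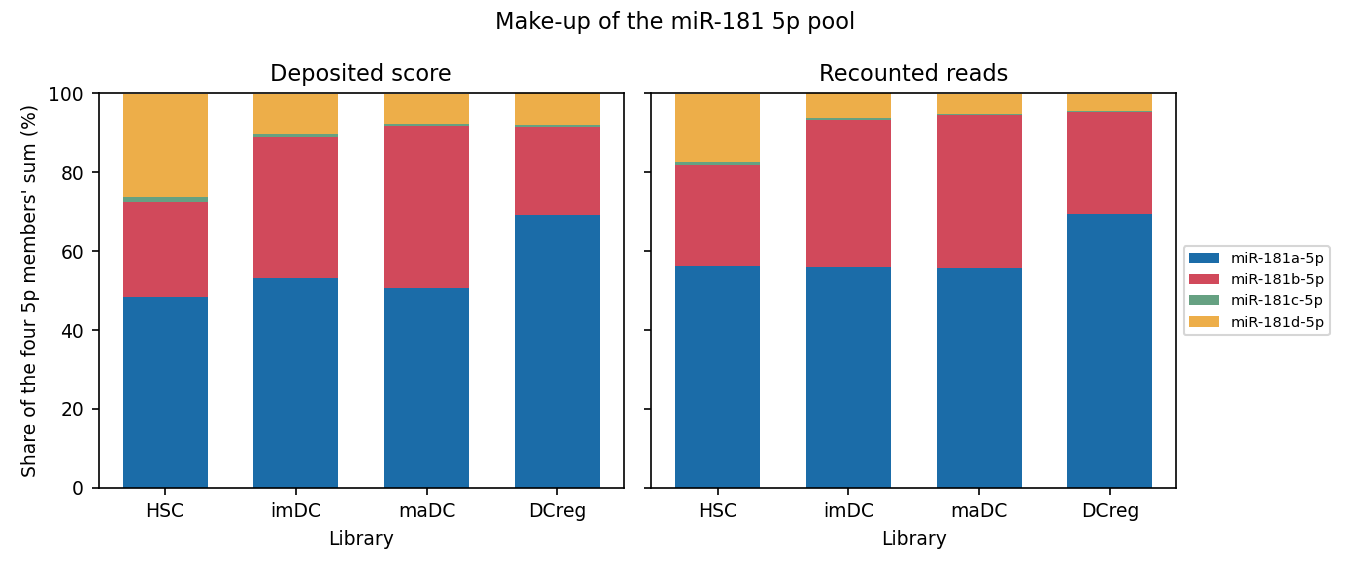
Share of each member in the summed 5p level of the 4 libraries, in percent, by deposited score (left) and by recounted reads (right). miR-181d-5p takes its largest share in HSC in both panels, and miR-181a-5p its largest in DCreg, at 69.2% of the scores and 69.4% of the reads. The score per read differed between members, so the left panel weighs them unequally.

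Since a single base separates miR-181d-5p from miR-181b-5p, the share of one among both was set beside the rate of the same change in a related sequence. miR-181d-5p held 40.1% (39.5% to 40.7%) of the reads of both in HSC and 14.5% in imDC, and 11.8% in maDC and 14.5% in DCreg. C12T, the base that separates them, was seen in 0.190% of miR-181a-5p reads in HSC, 0.175% in imDC, then 0.221% in maDC and 0.270% in DCreg. The share of miR-181d-5p was above that rate of change in every library.

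Reads that carried the shared seed at bases 2 to 8 gave a count of the pool that needs no assignment to a member. They numbered 60660 in HSC, 48513 in imDC and 22059 in maDC, and 8082 in DCreg, and 93.3% to 95.4% of them had been given to the family. Per 1000000 reads of the whole list this was 9664, 7402, 3356 and 1648, the same order of libraries as for the summed members.

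Over their annotated length miR-181a-5p and miR-181b-5p are the same from either of their hairpins, so their reads do not show which hairpin they came from. The score of miR-181a-5p was divided evenly between its hairpin entries, with 49.9% to 50.3% on mir-181a-2. That of miR-181b-5p was not, with 67.5% on mir-181b-2 in HSC and 64.8% in imDC, and 72.3% in maDC and 61.9% in DCreg. The 3p strands differ between hairpins and lay the other way for miR-181b: miR-181b-1-3p had 119 reads in HSC, 192 in imDC, then 34 in maDC and 6 in DCreg, and miR-181b-2-3p had 1, 0, 0 and 0. The 3p strand is thus seen from the chromosome 1 hairpin nearly alone, while the larger deposited 5p score is on the chromosome 2 hairpin.

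Base 25 of longer miR-181b-5p reads was looked at because Mir181b-2 has T there and Mir181b-1 has G. It was T in 65.1% of such reads in HSC, 57.9% in imDC and 69.0% in maDC, and 72.0% in DCreg, and G in 0.335%, 0.881%, 0.508% and 0.610%. However, miR-181d-5p, whose own hairpin has G at that position, had T in 66.5%, 56.1%, 72.6% and 75.0% of its reads of that length. Added T and encoded T cannot be told apart here, and base 25 does not show which hairpin the reads came from.

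The scores and the reads of mir-181c gave its arms opposite orders in HSC. By score the 3p strand stood above the 5p strand in HSC, at 804 against 691, whereas the HSC list held 427 reads of the 5p strand, none from the annotated start of the 3p strand and 8 from its base 7. Outside the 6 members, miR-181a-2-3p had scores of 108 in HSC and 19 in imDC, and 10 in maDC and 8 in DCreg, and miR-181d-3p 22, 7, 1 and 4.

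The reads of miR-181a-5p, miR-181b-5p and miR-181d-5p nearly all began at the annotated base. Of miR-181a-5p reads 99.6% did so in each library, of miR-181b-5p reads 98.4% to 99.3%, and of miR-181d-5p reads 99.6% to 100%. The 3′ ends of these 3 members differed far more. The commonest form of miR-181a-5p was 22 nt long in HSC (9502 reads, 29.4% of its reads), 25 nt in imDC (6303, 24.6%), 25 nt in maDC (3111, 26.1%) and 20 nt in DCreg (1095, 20.3%), where the 19-nt form followed (981, 18.2%). These forms are printed because they show what is missing at the 3′ end, with the bases beyond the shortest form in capitals.
19 nt: aacattcaacgctgtcggt
20 nt: aacattcaacgctgtcggtG
22 nt: aacattcaacgctgtcggtGAG
25 nt: aacattcaacgctgtcggtGAGTTT
All 4 forms hold the seed.

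Taking the stretch of each read that matches the hairpin, 11.2% of miR-181a-5p reads were 20 nt or shorter in HSC, 4.99% in imDC, then 14.9% in maDC and 50.5% (49.1% to 51.8%) in DCreg. For miR-181b-5p the shares were 18.7%, 12.1%, 16.1% and 47.4% (45.2% to 49.6%). DCreg stood apart from the other 3 libraries for both. For miR-181d-5p they were 7.70%, 7.18%, 3.37% and 12.0% (8.72% to 15.9%, of 343 reads), so DCreg was again highest but far below the other members. Reads that matched the hairpin over 24 nt or more, which for these hairpins may include added T, were 29.7%, 48.9%, 50.3% and 14.8% of miR-181a-5p. The same shares were 39.3%, 50.2%, 43.1% and 19.5% for miR-181b-5p and 19.7%, 32.1%, 37.9% and 9.33% for miR-181d-5p, lowest in DCreg for all 3.

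**Figure D3:**
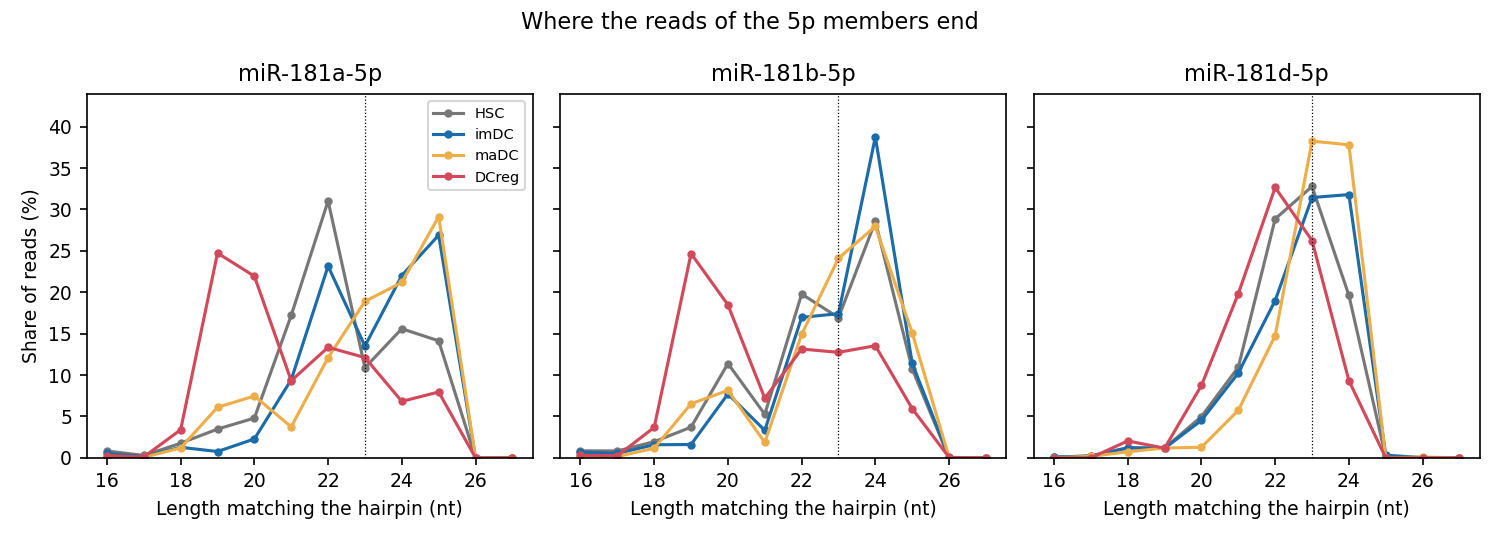
Share of the reads of miR-181a-5p, miR-181b-5p and miR-181d-5p, in percent, by the length in nt that matches the hairpin from the annotated first base, with a line per library. The dotted line marks the annotated length of 23 nt. In DCreg the lines of miR-181a-5p and miR-181b-5p have a peak at 19 nt, with 24.7% of miR-181a-5p reads, which miR-181d-5p lacks.

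The shortened reads were then set against other miRNAs, over 64 sequences of at least 21 nt with at least 500 reads in each library. This measure of length was chosen after the read forms had been seen. Reads that matched more than 1 sequence equally well were left out of it. The look-alike pairs miR-103-3p and miR-107-3p, miR-23a-3p and miR-23b-3p, and miR-27a-3p and miR-27b-3p thus had no shortened read in any library. The cut also follows the annotated length, so for shorter miRNAs it lies nearer the 18-nt lower limit of the libraries. How far both lowered the shares of the other miRNAs was not tested. In DCreg 45.7% (44.4% to 47.1%) of miR-181a-5p reads and 42.2% (40.0% to 44.4%) of miR-181b-5p reads were at least 3 nt shorter than annotated, as were 8.46% of miR-181d-5p reads. The median of the other miRNAs was 1.81% (quartiles 0.571% and 4.09%), and 0 of the 64 lay above either miR-181a-5p or miR-181b-5p, the nearest being miR-298-5p at 40.3%, within the interval of miR-181b-5p. In maDC the shares were 13.3% and 14.3%, with a median of 0.575% among the others and 1 of the 64 above, again miR-298-5p, at 39.3%. In HSC the shares were 6.44% for miR-181a-5p, with 20 of the 64 above it, and 15.1% for miR-181b-5p, with 8 above. In imDC they were 3.20% with 23 above and 10.2% with 10 above. miR-181c-5p, which has the 3′ sequence of miR-181a-5p, had no such read among 425 in HSC, with an exact interval that reaches 0.864%, and too few reads in DCreg (14) to compare.

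**Figure D4:**
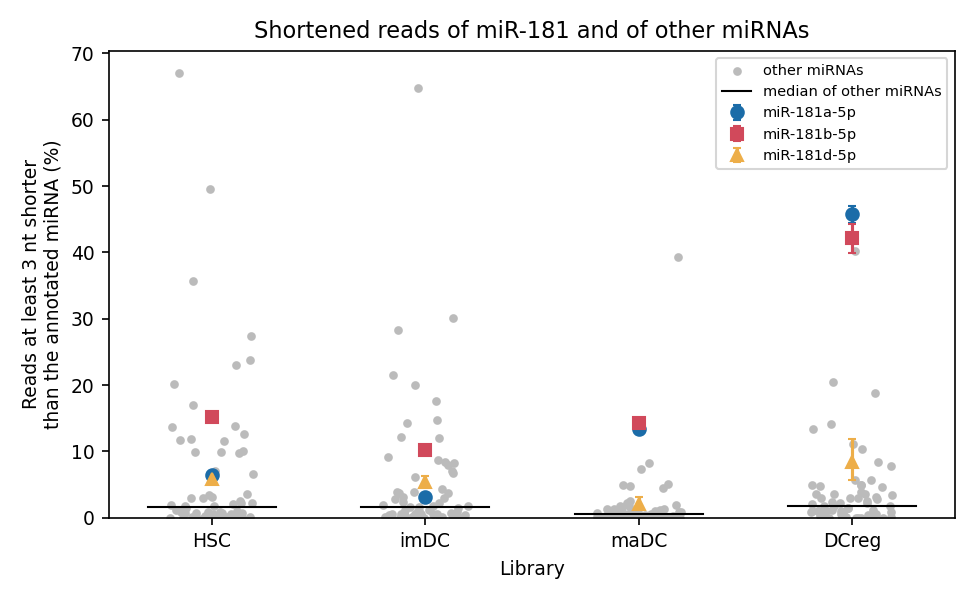
Share of reads at least 3 nt shorter than the annotated miRNA, in percent, for miR-181a-5p, miR-181b-5p and miR-181d-5p with exact 95% counting intervals, and for 64 other miRNAs (grey points, spread sideways for legibility, with their median as a line) in the 4 libraries. miR-181a-5p and miR-181b-5p lie inside the grey cloud in HSC and imDC and above all of it in DCreg, at 45.7% and 42.2%.

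The score per recounted read was lowest in the library with the most shortened reads. It was 0.891 in HSC, 0.811 in imDC and 0.854 in maDC, and 0.729 in DCreg for miR-181a-5p, and 0.963, 0.810, 0.997 and 0.626 for miR-181b-5p. The median of other miRNAs with 2 hairpins was 0.534, 0.502, 0.575 and 0.477, also lowest in DCreg. Whether the deposited scores count shortened reads was not given in the sources used here, and the part of read length in the scores was not tested. In the recount, the rule on read ends changed the size of the last difference. Reads longer than the mature strand were 15.9% of miR-181a-5p reads in DCreg and 51.9% in maDC. Where every miRNA was recounted from reads that begin at the annotated base and hold no base beyond or against the mature strand, the log2 ratio of the 5p sum in DCreg over maDC was -0.16, against -0.96 by the wider rule.

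Untemplated bases at the 3′ end, those that do not match the hairpin, were commoner on miR-181b-5p and miR-181d-5p than on miR-181a-5p. They were on 9.72% of miR-181a-5p reads in HSC and 8.16% in imDC, and 10.5% in maDC and 15.5% (14.5% to 16.5%) in DCreg. On miR-181b-5p they were on 26.3%, 25.2%, 37.0% and 28.0%, and on miR-181d-5p on 32.8%, 34.2%, 39.3% and 26.0%. DCreg was highest for miR-181a-5p and maDC highest for the other 2. Tails of A alone were on 3.90%, 3.10%, 4.88% and 8.06% of miR-181a-5p reads and on 9.92%, 12.9%, 14.8% and 11.2% of miR-181b-5p reads. Mir181a-1, Mir181a-2 and Mir181b-2 continue with 2 u after the mature strand and Mir181b-1 and Mir181d with 1, so added T is counted there as matching. Base 21 is A in miR-181a-5p and G in miR-181b-5p and miR-181d-5p. An A added to a read ending just before it is thus counted as matching on miR-181a-5p and as a tail on the other 2. The part of either in the tail shares, and in the difference between the members, was not tested.

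Across the 4 libraries, the 5p members were most like the member made from the neighbouring hairpin. The difference between 2 patterns was measured as the root mean square difference of log2 levels by score, each centred on its own mean over the 4 libraries. It was 0.220 between miR-181c-5p and miR-181d-5p, 0.503 between miR-181a-5p and miR-181b-5p, and 0.775 to 0.934 between miR-181a-5p or miR-181b-5p and miR-181c-5p or miR-181d-5p. Several miRNAs outside the family were nearer to miR-181a-5p and miR-181b-5p than these were to each other. Among 192 miRNAs outside the family, those nearest to miR-181a-5p were miR-5100 (0.113), miR-26b-5p (0.157), miR-378b (0.256), miR-16-5p (0.259) and miR-106b-5p (0.263), where the median over all was 1.06. miR-26b-5p had 11724 ppm in HSC, 5102 in imDC, then 3724 in maDC and 2262 in DCreg, high and low in the same order as miR-181a-5p. By recounted reads miR-378b was higher in imDC (259 ppm) than in HSC (151 ppm), unlike miR-181a-5p (4826 and 6191 ppm). The other miRNAs named as nearest to miR-181a-5p were lower in imDC than in HSC by reads too. Nearest to miR-181b-5p were miR-191-5p (0.211), miR-130b-3p (0.312), miR-142-3p (0.358), miR-340-5p (0.377) and miR-17-3p (0.384), against a median of 1.17. The recount gave no reads to miR-191-5p, so its pattern rests on the scores. With 4 libraries such nearness is a description.

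miRNAs of lymphocytes outside the family had mixed patterns. Of the 5 in the list, 1 was at least 2-fold higher and 2 lower in imDC than in HSC (26.2% and 28.3% of all 187 miRNAs), with a median log2 ratio of -0.19. Of the 4 that reached 100 ppm at the later steps, none was past 2-fold between maDC and imDC (9.38% of all higher and 45.0% lower, median -0.24), and 2 were lower in DCreg than in maDC (28.3% of all lower, median -0.89). miR-150-5p, a miRNA of mature lymphocytes that targets Myb, had 914 ppm in HSC, 17.1 in imDC and 1.56 in maDC, and 2.20 in DCreg. miR-342-3p, also abundant in lymphocytes, had 2070, 1814, 2098 and 1914 ppm, level across the libraries. miR-155-5p, a regulator of lymphocyte and dendritic cell activation, had 47.6, 2609, 1651 and 141 ppm, high in imDC and maDC. miR-128-3p had 2345, 607, 421 and 370 ppm, lower in each later library as the miR-181 members were. miR-342-5p had 74.1, 129, 132 and 43.7 ppm.

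Of the 8 miRNAs of the blood lineage list, 7 reached 100 ppm at each step. In imDC over HSC 2 were at least 2-fold higher and none was lower (26.2% and 28.3% of all miRNAs, median log2 ratio -0.40). In maDC over imDC none was higher and 4 were lower (9.38% and 45.0% of all, median -1.24). In DCreg over maDC 1 was higher and 4 were lower (20.3% and 28.3% of all, median -1.20). miR-142-3p, a miRNA of nearly all blood cells, had 1133 ppm in HSC and 861 in imDC, and 366 in maDC and 94.6 in DCreg. miR-223-3p, which restrains granulocyte production, had 3438, 2264, 635 and 669 ppm, lower in maDC and DCreg than in the other 2 libraries. Others had other orders. miR-221-3p, which targets the stem cell factor receptor Kit, had 7093, 19677, 24002 and 10475 ppm, and miR-222-3p from the same cluster 2839, 9752, 7240 and 2106 ppm, both lower in HSC than in imDC and maDC. miR-142-5p had 18959, 9513, 13196 and 9377 ppm. miR-146a-5p, which dampens Toll-like receptor signalling, had 1561, 1105, 309 and 1115 ppm, lowest in maDC.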

How the data were processed

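The deposited series table holds whole-number scores, a value for each pair of hairpin and mature name, headed as normalised counts by the authors (normalisation method not given in the sources used here). Small RNA of 18 to 30 nt was ligated to adaptors, amplified for 12 cycles, filtered of other RNA classes and compared with miRBase release 19, per the labels' protocols (aligner not given in the sources used here). Other deposited values are counts of copies of each unique sequence, per the file headers of the 4 lists.

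Scores were summed over hairpins and scaled to a total of 1000000. Reads were recounted by exact match over 16 nt or more, with a 5′ shift of up to 2 nt and at most 5 unmatched 3′ bases, and the recount was tested on simulated data. The simulated reads were made within these rules and lost at most 2 bases at the 3′ end. They do not cover the more shortened reads, or the names without reads, seen in the lists. No count model was run. A call needs a 2-fold ratio, with a pseudocount of 0.5, and 100 ppm in either library. Folds without a log2 scale are plain ratios. Floors are 3 counts. The 6 members are named in every library, with other miR-181 names, the 5 nearest patterns of the 2 leading members and 2 lists. Members and lists were chosen with earlier results of these data known. RefSeq held mature sequences for 6 of 6 members. Alternatives were other scalings, measures, recount rules, minimums and pseudocounts. Python 3.11.15, numpy 2.4.6, scipy 1.17.1 and matplotlib 3.10.9 were used.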

Additional observations from a re-analysis of the deposited data

How the results depend on the processing

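With 1 library per population no replicate could be left out, and depth limits miR-181c-5p, with 14 reads in DCreg. No paired analysis was possible because each population has 1 library. The log2 ratio of the 5p sum stayed below 0 under every alternative run, and the cause of each shift in its size was not tested. For imDC over HSC it was -0.93, and became -0.35 by recounted reads, -0.36 with 1 mismatch, -0.68 without unmatched bases or with all listed reads as the total, -0.72 with trimmed mean of M-values, -1.02 with median of ratios, -0.98 without the 5 most abundant miRNAs and -1.17 with the highest hairpin entry. For maDC over imDC it was -0.73, and in the same order -1.17, -1.17, -1.35 (without unmatched bases), -0.96 (all listed reads), -0.18, -0.025, -0.49 and -0.61. For DCreg over maDC it was -1.09, and became -0.96 by recounted reads, -0.97 with 1 mismatch, -0.16 without unmatched bases, -1.39 with all listed reads, -0.70 without the 5 most abundant and -1.23 with the highest entry. Members called lower in imDC than in HSC were 3 of 6, and 1 of 3 by recounted reads, where miR-181c-5p was under 100 ppm and the 3p members could not be counted. In maDC against imDC, 1 of 3 was called, and 3 of 3 by recounted reads, 2 of 3 with all listed reads, 4 of 6 at a 10 ppm minimum and 0 of 3 with trimmed mean of M-values, median of ratios or without the 5 most abundant. In DCreg against maDC, 2 of 3 were called and 1 of 3 without the 5 most abundant. Relative to the column total, trimmed mean of M-values shifted every log2 ratio by 0.21, 0.55 and 0.01 in the 3 comparisons, median of ratios by -0.09, 0.70 and 0.01, all listed reads by 0.25, -0.23 and -0.29, and leaving out the 5 most abundant by -0.05, 0.24 and 0.40. Single members had the direction reported in 33 of 34, 32 of 34 and 33 of 34 alternatives, the exceptions being miR-181b-5p, named in the report, and miR-181a-1-3p in DCreg over maDC, at 0.35 without the 5 most abundant.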

Other observations

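Substitutions between the seed and the 3′ end of miR-181 reads were few and unevenly placed. Only reads unchanged up to the end of the seed were counted, and the last bases of the mature strand were not compared. The commonest in miR-181a-5p was T15G, counted from 1 at the 5′ end, in 2.11% (interval 1.96% to 2.27%) of its reads in HSC, 1.99% in imDC, then 1.47% in maDC and 1.53% in DCreg. The next commonest there, T15C, was in 0.449%, 0.558%, 0.310% and 0.558%. For miR-181b-5p the total took in reads chosen in this way with at most 1 substitution, and so also reads of miR-181d-5p, which carry C12T. Such C12T reads were 39.3% of that total for HSC, against 14.0% (imDC), 11.5% (maDC) and 14.3% (DCreg). T15G made up 0.921% of the same total for HSC, against 1.46% (imDC), 1.22% (maDC) and 0.874% (DCreg). Its share of miR-181b-5p alone was not measured, so these values do not compare the libraries. The lists held no quality values, and the part of sequencing errors in these shares was not tested.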
